A study of Saccharomyces cerevisiae with 12 samples.

Results

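The aminoacyl-tRNA synthetases of the yeast Saccharomyces cerevisiae were followed after a temperature shift in a TOR2 mutant and in the wild type. The 32 genes were given as a list by name. They comprise 19 of the cytosolic class, among them the cofactor ARC1, and 13 that encode mitochondrial enzymes. Each was found by its symbol in the platform's annotation, all 32 with a single plain probe set, out of 9335 probe sets on the array, of which 6504 carry 1 gene symbol. The mutant strain, called MU here, is SH121. Its TOR2 allele is temperature-sensitive and fails in the function only TOR2 has. The paper places this function in the polarization of actin through the cell cycle and possibly in transcription. The control, called WT, is the isogenic strain SH100. Both were grown in the rich medium YPD at 25 °C (0 h) and harvested, at the same density, there or after 2 h or 6 h at 37 °C. The 6 groups hold 2 independent cultures each, A and B, so 12 arrays (Affymetrix S98) were made. MU rests on 1 strain, and the 2 h and 6 h groups differ from 0 h in both temperature and time, so the effects of heat and of time cannot be told apart.

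Aminoacyl-tRNA synthetases join each amino acid to its tRNA and so set which amino acid a codon gives. Yeast makes proteins in the cytosol and, for a few products of the mitochondrial genome, inside mitochondria, and the nucleus encodes an enzyme set for each. Some genes serve both places: ALA1, GRS1, HTS1 and VAS1 each give a cytosolic and a mitochondrial form of their enzyme, and they were counted here with the cytosolic class. In growing yeast the genes of the cytosolic translation machinery are known to be lowered under stress and when TOR signalling is blocked, whereas mitochondrial enzymes are known to increase as glucose runs low. By the paper, the TOR function in translation initiation and growth is shared with TOR1, and SH121 is defective specifically in the other.

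The values are linear signal intensities. The 12 arrays had medians of 72.0 to 75.8, and duplicates correlated with r of 0.97 to 0.978 on the log2 scale over all probe sets. No probe set of the 32 genes was at the lowest signal of the table on any array. The heat genes HSP12, HSP26, HSP104 and SSA4, used as a check of the shift, all rose at 2 h and at 6 h in both strains. TOR2 itself gave signals of 178.4 to 331.6 on MU arrays and 235.9 to 351.1 on WT arrays, which does not check the labels because the allele acts on the protein. Changes are log2 differences fitted by limma over 9275 probe sets and are given ± the standard error. A gene is said to have risen or fallen at an adjusted p under 0.05, by Benjamini and Hochberg over all probe sets. The comparisons of 2 h and of 6 h with 0 h use the same 0 h arrays. RNA came from whole cultures and the arrays were put on a common scale of signals, so a lower share of a transcript in every cell, a different mixture of cells and a change in total RNA cannot be told apart.

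The class medians moved in opposite directions after 6 h at 37 °C, and the counts of mitochondrial calls depended on single arrays. In MU, 14 of the 19 cytosolic genes fell and none rose, and 3 of the 13 mitochondrial genes rose and none fell. In WT, 9 of 19 cytosolic genes fell and 4 of 13 mitochondrial genes rose, again with none called the other way. Among all probe sets, 11.4% fell and 10.8% rose in MU, and 9.55% fell and 9.83% rose in WT. With 19 and 13 genes, none called the other way is near that background. The share of cytosolic genes that fell was thus 73.7% in MU and 47.4% in WT, and the share of mitochondrial genes that rose was 23.1% in MU and 30.8% in WT. The median change of the cytosolic class was -0.47 in MU and -0.35 in WT. That of the mitochondrial class was 0.27 in MU and 0.33 in WT, and over all probe sets the medians were -0.06 in MU and -0.04 in WT.

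**Figure D1:**
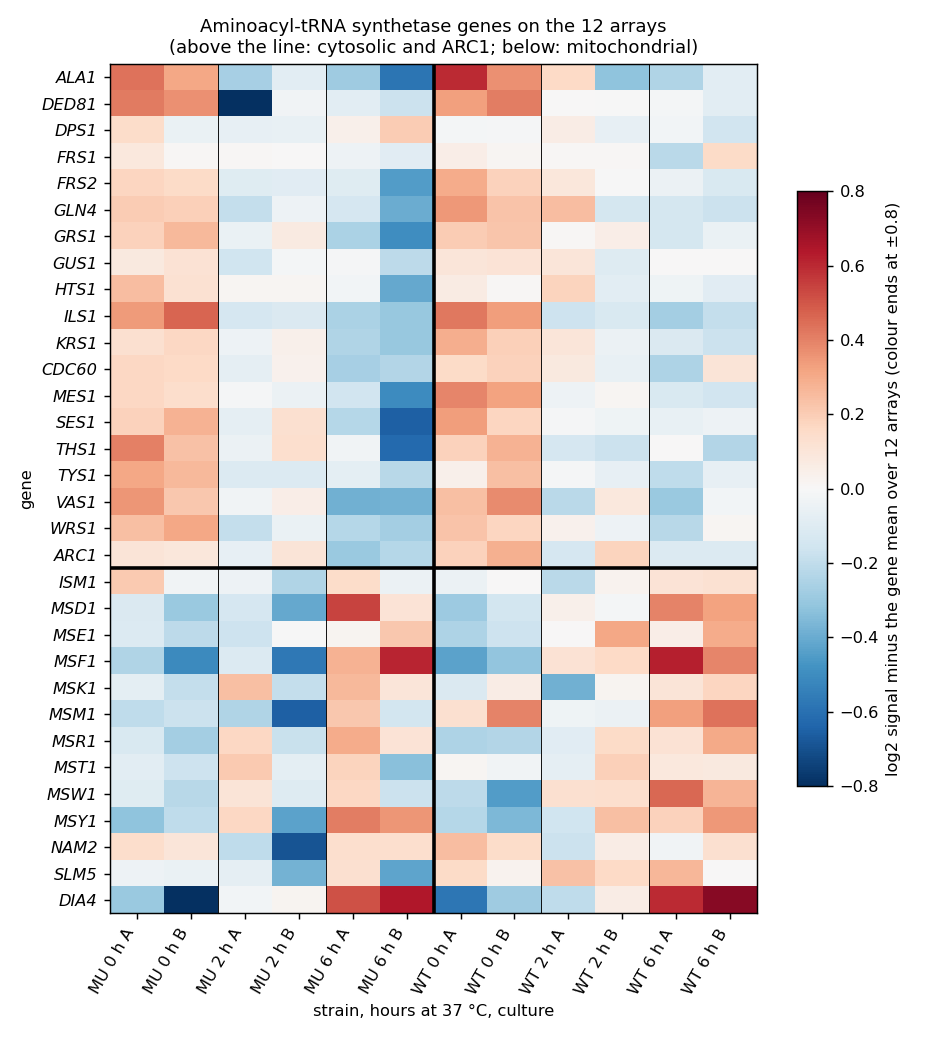
Log2 signal of each gene minus its mean over the 12 arrays, with MU arrays left and WT arrays right, by hours at 37 °C and culture. The 19 cytosolic genes (upper rows) are mostly above their mean at 0 h and below it at 6 h, and most of the 13 mitochondrial genes (lower rows) run the other way, with colours ending at 0.8 on either side.

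The split could be seen on each array at 0 h and at 6 h. When each gene was set relative to its own mean over the 12 arrays, the cytosolic median was 0.19 on both MU arrays and 0.22 to 0.23 on the WT arrays at 0 h. At 6 h it was -0.30 to -0.15 in MU and -0.12 to -0.09 in WT. The mitochondrial median was -0.20 to -0.11 in MU and -0.21 to -0.15 in WT at 0 h, against 0.11 to 0.22 in MU and 0.18 to 0.30 in WT at 6 h. Neither class had a 6 h array within the range of the 0 h arrays. At 2 h the cytosolic medians lay between, from -0.07 to 0.01 over both strains, and the mitochondrial medians were scattered from -0.24 to 0.14.

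Among the cytosolic genes, ALA1 (YOR335C), for alanyl-tRNA synthetase, changed most at 6 h. The MU cultures gave signals of 714.6 and 653.0 at 0 h, 439.6 and 497.8 at 2 h, and 433.4 and 351.7 at 6 h (cultures A and B). Those in WT were 798.5 and 679.2 at 0 h, 590.6 and 421.6 at 2 h, and 446.9 and 496.8 at 6 h. All arrays at 37 °C were below all those at 0 h, whereas the WT arrays at 6 h lay inside the range of the 2 h pair. ALA1 fell at 6 h in both strains, with log2 changes of -0.81 ± 0.17 in MU (adjusted p = 0.0149) and -0.67 ± 0.17 in WT (adjusted p = 0.0336). At 2 h the change did not pass the threshold in either strain (adjusted p = 0.103 in MU and 0.0786 in WT).

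ILS1 (YBL076C), for the cytosolic isoleucyl-tRNA synthetase, also fell in both strains, and its duplicates lay close together. In MU its signals were 638.2 and 695.2 at 0 h, 458.8 and 464.1 at 2 h, and 423.3 and 408.1 at 6 h. In WT they were 674.0 and 634.0 at 0 h, 449.8 and 464.0 at 2 h, and 417.3 and 440.9 at 6 h. Most of the decrease was present by 2 h, and no array at 37 °C came near those at 0 h. The 2 h changes were -0.54 ± 0.07 in MU (adjusted p = 0.00387) and -0.55 ± 0.07 in WT (adjusted p = 0.00337). At 6 h they were -0.68 in MU and -0.63 in WT. ILS1 was the only cytosolic gene that fell at 2 h in WT.

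SES1 (YDR023W), for the cytosolic seryl-tRNA synthetase, had signals in MU of 1114.0 and 1184.9 at 0 h, 932.0 and 1067.6 at 2 h, and 836.2 and 622.1 at 6 h. In WT it had 1233.0 and 1101.9 at 0 h, 971.9 and 953.4 at 2 h, and 939.6 and 950.9 at 6 h. In MU each later pair lay below the earlier one, while in WT the 2 h and 6 h signals were close to each other. SES1 fell at 6 h in MU, by 0.68 ± 0.13 on the log2 scale (adjusted p = 0.0115), and its WT change of -0.32 ± 0.13 did not pass the threshold (adjusted p = 0.138). The difference between these changes was -0.35 ± 0.19, with an adjusted p of 0.951, so the strains were not shown to differ.

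VAS1 (YGR094W), which gives both forms of valyl-tRNA synthetase, had MU signals of 1039.2 and 945.1 at 0 h, 798.1 and 842.4 at 2 h, and 621.7 and 624.9 at 6 h. Its WT signals were 962.1 and 1054.1 at 0 h, 699.1 and 863.0 at 2 h, and 662.2 and 799.4 at 6 h. The MU pairs of the 3 times did not overlap, and those of WT at 2 h and 6 h did. VAS1 fell at 6 h in MU (-0.68 ± 0.13, adjusted p = 0.00872) and in WT (-0.49 ± 0.13, adjusted p = 0.0317).

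MES1 (YGR264C), for the cytosolic methionyl-tRNA synthetase, had MU signals of 1730.4 and 1697.7 at 0 h, 1529.1 and 1491.9 at 2 h, and 1386.4 and 1085.2 at 6 h. Its WT signals were 2018.1 and 1924.8 at 0 h, 1497.9 and 1555.5 at 2 h, and 1416.1 and 1387.4 at 6 h. At 6 h MES1 fell in MU (-0.48 ± 0.11, adjusted p = 0.0156) and in WT (-0.51 ± 0.11, adjusted p = 0.015). The products of MES1, GUS1 and ARC1 form a complex in the cytosol. ARC1 (YGL105W), which brings tRNA to the complex, fell at 6 h by 0.37 ± 0.11 in MU (adjusted p = 0.0426) and by 0.36 ± 0.11 in WT (adjusted p = 0.0492), on the log2 scale. GUS1 (YGL245W), for the glutamyl-tRNA synthetase of the complex, had changes of -0.21 ± 0.09 in MU and -0.11 ± 0.09 in WT, neither past the threshold (adjusted p = 0.137 in MU and 0.437 in WT).

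The other cytosolic genes that fell at 6 h in both strains were GRS1, KRS1, TYS1 and WRS1, for the glycyl-, lysyl-, tyrosyl- and tryptophanyl-tRNA synthetases. Their log2 changes lay between -0.60 (GRS1) and -0.42 (KRS1) in MU, and between -0.40 (KRS1) and -0.31 (TYS1) in WT. FRS2, GLN4, CDC60 and THS1, for the phenylalanyl-, glutaminyl-, leucyl- and threonyl-tRNA synthetases, passed the threshold in MU and not in WT, as SES1 did. FRS2 and GLN4 missed the threshold in WT by little (adjusted p = 0.0538 for FRS2 and 0.0515 for GLN4), so the longer MU list does not show a difference between the strains. All 9 genes that fell in WT also fell in MU.

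**Figure D2:**
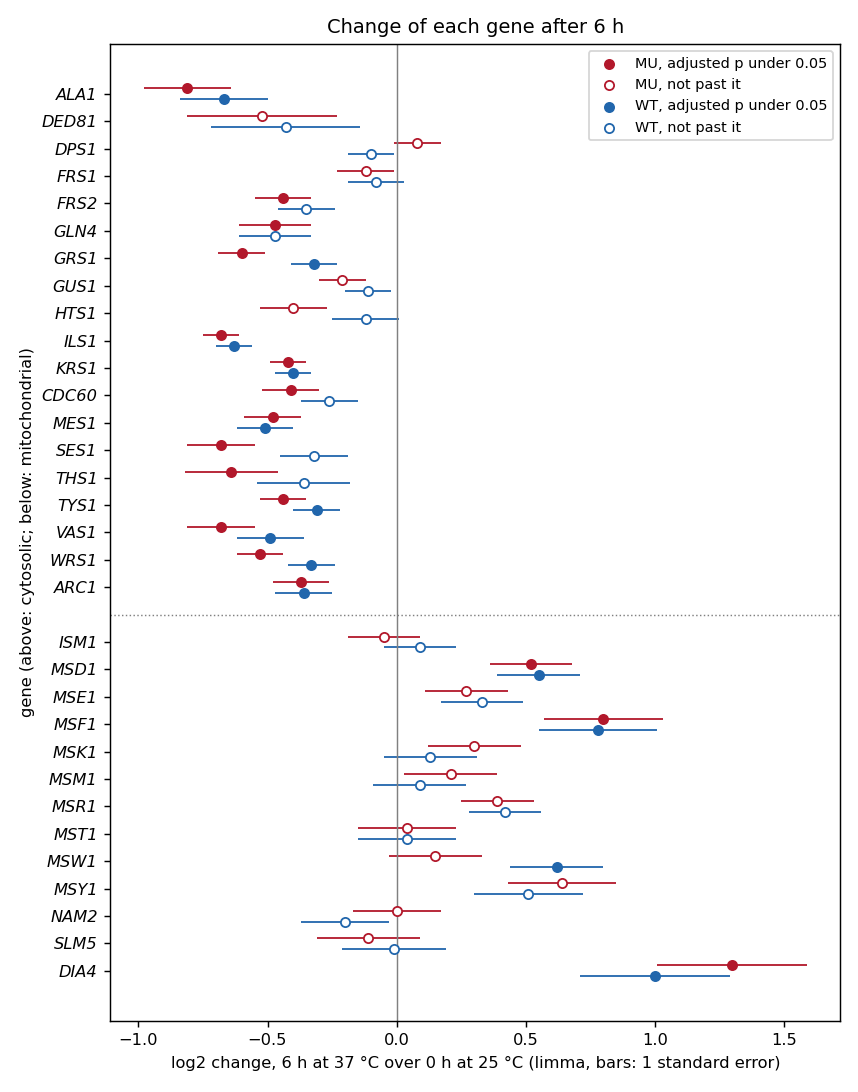
Log2 change from 0 h to 6 h of each gene, fitted by limma, with MU as red points above the blue WT points and bars of 1 standard error. Filled points have an adjusted p under 0.05. The filled points are left of 0 for the cytosolic genes (14 in MU, 9 in WT) and right of 0 for the mitochondrial genes (3 in MU, 4 in WT).

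DPS1, the cytosolic aspartyl-tRNA synthetase gene (YLL018C), stood apart as the only cytosolic gene with a change above 0 in any comparison with 0 h. Its MU signals were 2238.1 and 1942.7 at 0 h, 1926.8 and 1939.2 at 2 h, and 2077.3 and 2319.0 at 6 h. Its WT signals were 1995.8 and 2003.3 at 0 h, 2106.9 and 1927.2 at 2 h, and 1983.9 and 1811.3 at 6 h. The MU arrays at 6 h overlapped those at 0 h, and the 6 h changes of 0.08 ± 0.09 in MU and -0.10 ± 0.09 in WT did not pass the threshold. The phenylalanyl enzyme is built from the products of FRS1 (YLR060W) and FRS2 (YFL022C), of which FRS2 passed the threshold and FRS1 did not. FRS2 signals in MU were 731.3 and 723.5 at 0 h, 608.4 and 609.6 at 2 h, and 608.4 and 476.8 at 6 h, and in WT 796.9 and 737.7 at 0 h, 690.7 and 649.0 at 2 h, and 627.9 and 597.0 at 6 h. At 6 h, FRS2 fell in MU (-0.44 ± 0.11, adjusted p = 0.0225), and its WT change was -0.35 ± 0.11. FRS1 had 6 h changes of -0.12 ± 0.11 in MU (adjusted p = 0.493) and -0.08 ± 0.11 in WT (adjusted p = 0.648). The difference between both subunit genes was not tested.

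The genes that give both forms followed the cytosolic pattern. Of the 4, ALA1, GRS1 and VAS1 fell at 6 h in MU and in WT. HTS1, for histidyl-tRNA synthetase, did not pass the threshold, with changes of -0.40 ± 0.13 in MU (adjusted p = 0.063) and -0.12 ± 0.13 in WT (adjusted p = 0.565). Without these 4 genes and ARC1, 10 of 14 cytosolic genes fell in MU and 5 of 14 in WT. Among all probe sets, 11.4% fell at 6 h in MU and 9.55% in WT. Synthetases fall into a pair of unrelated structural classes, and this grouping was made after the values had been seen. Of the 8 cytosolic genes of class I, 7 fell in MU and 5 in WT at 6 h, and of the 10 of class II, 6 fell in MU and 3 in WT. The shares of all probe sets just given are the background here too. The class medians were nearly the same, at -0.48 in MU for each, and at -0.40 (class I) and -0.34 (class II) in WT.

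DIA4 (YHR011W), a gene for a probable mitochondrial seryl-tRNA synthetase whose loss is known to cause invasive growth, changed most among the mitochondrial genes. In MU the signals were 25 and 13.7 at 0 h, 30.3 and 31.2 at 2 h, and 43.9 and 48.0 at 6 h. In WT they were 20.6 and 25.3 at 0 h, 26.7 and 32.1 at 2 h, and 46.6 and 50.9 at 6 h. Each later time lay above the earlier one in both strains, although the MU pair at 0 h was spread widely. DIA4 rose at 6 h by 1.30 ± 0.29 in MU (adjusted p = 0.0176) and by 1.0 ± 0.29 in WT (adjusted p = 0.0485), which are 2.46-fold in MU and 2.0-fold in WT.

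MSF1 (YPR047W), for the mitochondrial phenylalanyl-tRNA synthetase, had MU signals of 22.6 and 18.8 at 0 h, 24.8 and 18.0 at 2 h, and 32.4 and 40.9 at 6 h. Its WT signals were 19.9 and 21.5 at 0 h, 29.0 and 29.9 at 2 h, and 41.2 and 35.0 at 6 h. In MU the 2 h arrays overlapped those at 0 h, while in WT they lay between 0 h and 6 h. MSF1 rose at 6 h in MU (0.80 ± 0.23, adjusted p = 0.0423) and in WT (0.78 ± 0.23, adjusted p = 0.0497). MSD1 (YPL104W), for the mitochondrial aspartyl-tRNA synthetase, had 171.9 and 151.6 at 0 h, 169.8 and 140.4 at 2 h, and 270.7 and 201.2 at 6 h in MU, and 152.4 and 168.0 at 0 h, 191.8 and 184.7 at 2 h, and 245.8 and 232.7 at 6 h in WT. It rose at 6 h in MU (0.52 ± 0.16, adjusted p = 0.048) and in WT (0.55 ± 0.16, adjusted p = 0.0458).

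**Figure D3:**
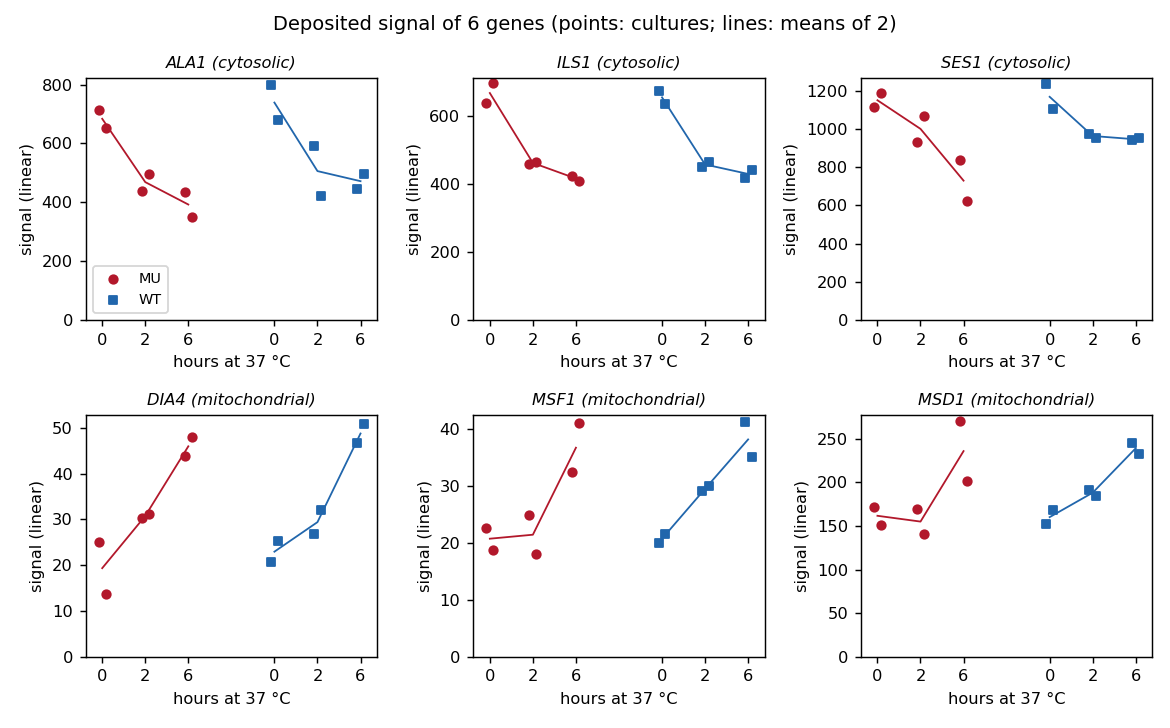
Linear signal against hours at 37 °C for 3 cytosolic genes (upper row) and 3 mitochondrial genes (lower row), MU in red left of WT in blue. Points are cultures and lines join the means of 2. The ALA1, ILS1 and SES1 signals are highest at 0 h, and those of DIA4, MSF1 and MSD1 are highest at 6 h, in both strains.

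MSW1 (YDR268W), for the mitochondrial tryptophanyl-tRNA synthetase, was the only mitochondrial gene past the threshold in a single strain. Its MU signals were 37.3 and 34.2 at 0 h, 43.0 and 37.2 at 2 h, and 44.8 and 35.4 at 6 h, and its WT signals were 34.5 and 29.3 at 0 h, 43.6 and 43.9 at 2 h, and 54.9 and 48.3 at 6 h. The MU groups overlapped at all times and the WT arrays at 37 °C were all above those at 0 h. MSW1 rose in WT (0.62 ± 0.18, adjusted p = 0.0468) and had a change of 0.15 ± 0.18 in MU (adjusted p = 0.609). The difference, -0.48 ± 0.25, did not pass the threshold (adjusted p = 0.951). MSR1 and MSY1, for the mitochondrial arginyl- and tyrosyl-tRNA synthetases, had 6 h changes of 0.39 (MSR1) and 0.64 (MSY1) in MU, and 0.42 (MSR1) and 0.51 (MSY1) in WT, with adjusted p from 0.0651 to 0.135.

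The other mitochondrial genes did not pass the threshold. At 6 h, 11 of 13 had a change above 0 in MU and 11 in WT. MSE1, MSK1 and MST1, for the glutamyl, lysyl and threonyl enzymes, had 0.27 (MSE1), 0.30 (MSK1) and 0.04 (MST1) in MU, and 0.33 (MSE1), 0.13 (MSK1) and 0.04 (MST1) in WT. SLM5 (YCR024C), for the asparaginyl enzyme, had changes of -0.11 in MU and -0.01 in WT, with overlapping arrays in both. ISM1 (YPL040C), for the isoleucyl enzyme, had -0.05 in MU and 0.09 in WT. NAM2 (YLR382C), whose product charges leucine and also takes part in the splicing of mitochondrial introns, had 0.00 in MU and -0.20 in WT. NAM2 had its lowest mean signal at 2 h in both strains. In MU the signals were 82.4 and 79.6 at 0 h, 64.7 and 46.3 at 2 h, and 81.7 and 82.0 at 6 h, and in WT 88.5 and 82.7 at 0 h, 66.3 and 77.7 at 2 h, and 73.3 and 81.5 at 6 h. Its 2 h change of -0.58 ± 0.17 in MU did not pass the threshold (adjusted p = 0.0869).

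The calls of the mitochondrial class were close to the threshold. The counts below without an array have no share of all probe sets beside them, so a drop may not be particular to these genes. The adjusted p of the 4 WT calls were 0.0458 to 0.0497, and without any 1 of the 12 arrays 0 to 2 genes were called in WT. In MU the count was 0 without MU 0 h B, and 1 without any of MU 0 h A, MU 6 h A, MU 6 h B and the WT arrays of each time. The cytosolic count at 6 h in MU was 5 without either 0 h array and 7 without MU 6 h B. The cytosolic count in WT was 2 without WT 0 h B or WT 6 h A, 3 without WT 0 h A and 4 without either MU 0 h array. Mean signals were 193.9 to 3481.6 for the cytosolic genes and 27.8 to 338.4 for the mitochondrial ones. DIA4 and MSF1, called at 6 h in both strains, and MSW1, called in WT, had the lowest means of the mitochondrial genes. All signals of these genes lay below the lowest array median of 72.0. Duplicates of a group differed by a median of 0.073 to 0.159 on the log2 scale for the cytosolic genes and 0.12 to 0.303 for the mitochondrial genes, and the part of this spread in the smaller count of mitochondrial calls was not tested. Detection calls were not used here.

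After 2 h the changes were smaller. In MU, 3 of 19 cytosolic genes fell (ILS1, TYS1 and WRS1) and in WT 1 fell (ILS1), against 3.11% of all probe sets in MU and 3.28% in WT. Shares of 15.8% in MU and 5.26% in WT were thus above the background in MU and, with a single gene, near it in WT. No cytosolic gene rose by limma, against 4.88% of all probe sets in MU and 5.38% in WT, and at an unadjusted p under 0.05, 0 were higher in either strain and 7 were lower in each. At that p, 12.1% of all probe sets were lower and 11.7% higher in MU, and 12.3% lower and 12.5% higher in WT. RDAM, the rank difference method of the study as rebuilt here from its description, called 0 of the 19 increased in both strains and 5 decreased in MU and 2 in WT. Over all probe sets it called 8.72% decreased and 10.7% increased in MU, and 4.41% decreased and 10.5% increased in WT, so the WT count of 2 rests on few genes. All 19 changes were below 0 in MU and in WT, with medians of -0.22 in MU and -0.24 in WT. TYS1 changed by -0.40 ± 0.09 in MU (adjusted p = 0.0353), and -0.21 ± 0.09 in WT (adjusted p = 0.195). WRS1 changed by -0.41 ± 0.09 in MU (adjusted p = 0.0296), and -0.23 ± 0.09 in WT (adjusted p = 0.147).

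No mitochondrial gene was called at 2 h by limma in either strain. With the shares of all probe sets given above, at most 5.38% in a direction, 0 of 13 genes is near the background. At an unadjusted p under 0.05 there were 2 in MU (DIA4 higher and NAM2 lower) and 0 in WT, and RDAM called 0 in both. At that p, 11.7% of all probe sets were higher and 12.1% lower in MU, so 1 of 13 each way is not above the background. The medians of the mitochondrial class were 0.06 in MU and 0.19 in WT. The MU value rested on single arrays, since it was -0.17 without MU 2 h A and 0.24 without MU 2 h B. Between 2 h and 6 h no gene of either class was called by limma, against 0.291% of probe sets that were higher and 0.334% lower at 6 h in MU, and 0.0539% higher and 0.0108% lower in WT. At an unadjusted p under 0.05, 6 cytosolic genes were lower and 5 mitochondrial genes higher at 6 h in MU, and 1 was lower and 2 higher in WT. The shares of all probe sets at that p were 9.85% lower and 8.98% higher in MU, and 6.01% lower and 5.44% higher in WT, so the single cytosolic gene of WT is near the background. RDAM called 0 of the 32, against 1.79% of all probe sets higher and 0.0323% lower in MU, and 0.323% higher and 0% lower in WT. The medians from 2 h to 6 h were -0.22 in MU and -0.09 in WT for the cytosolic class, and 0.21 in MU and 0.24 in WT for the mitochondrial class. GRS1 came nearest to the threshold, with -0.38 ± 0.09 in MU (adjusted p = 0.0903).

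The question of what the TOR2 mutation changed is addressed by the comparisons of MU with WT at each time and by the differences between the strains' changes. None of the 32 genes was called by limma in any of these. The background was 0.0323% of probe sets at 0 h, 0% at 2 h and 0% at 6 h, and 0% for both differences of changes. RDAM as rebuilt here called 0 of the 32 at each time and was not run on the differences. It called 0% of all probe sets at 0 h, 0.0216% at 2 h and 0.0539% at 6 h, so its 0 says little about the 32 genes. At an unadjusted p under 0.05 there was 1 gene at 0 h, 0 at 2 h and 3 at 6 h, and 0 in both differences. The background at that p was 4.64% of probe sets at 0 h, 5.48% at 2 h and 8.69% at 6 h, and 4.12% (2 h) and 5.02% (6 h) for the differences, so 3 of 32 genes at 6 h is near it. The absence of a call does not show that the strains were alike. Cytosolic medians of MU over WT were -0.01 at 0 h, -0.02 at 2 h and -0.14 at 6 h, and mitochondrial ones were -0.07 at 0 h, -0.15 at 2 h and -0.05 at 6 h. Medians over all probe sets were 0.00 at 0 h, -0.01 at 2 h and -0.01 at 6 h.

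At 0 h and 2 h the lowest p of the 32 genes was that of MSM1 (YGR171C), for the mitochondrial methionyl-tRNA synthetase. Its signals in MU were 101.4 and 103.6 at 0 h, 98.9 and 74.1 at 2 h, and 135.6 and 105.4 at 6 h, and in WT 127.3 and 153.4 at 0 h, 113.8 and 113.1 at 2 h, and 146.3 and 157.6 at 6 h. MU was below WT at each time with no overlap of the arrays. The differences were -0.47 ± 0.18 at 0 h (adjusted p = 1 by limma), -0.39 ± 0.18 at 2 h (adjusted p = 0.899) and -0.34 ± 0.18 at 6 h (adjusted p = 0.64). At 6 h the lowest p was that of GRS1 (YBR121C), a gene for both forms of glycyl-tRNA synthetase. Its signals in MU were 1528.5 and 1612.9 at 0 h, 1298.2 and 1415.9 at 2 h, and 1133.0 and 955.0 at 6 h. In WT they were 1548.5 and 1570.5 at 0 h, 1356.5 and 1399.4 at 2 h, and 1220.3 and 1298.5 at 6 h.

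The strains overlapped at 0 h and 2 h for GRS1 and did not at 6 h, where the difference was -0.27 ± 0.09 (adjusted p = 0.476 by limma). GRS1 also had the lowest p in the difference of changes at 6 h, -0.28 ± 0.12 (adjusted p = 0.951). At 6 h, the other genes at an unadjusted p under 0.05 were SES1, with a difference of MU over WT of -0.38 ± 0.13 (adjusted p = 0.499), and DPS1, with 0.23 ± 0.09 (adjusted p = 0.523). The lowest p in the difference of changes at 2 h was that of TYS1 (YGR185C). Its signals in MU were 546.8 and 527.8 at 0 h and 407.3 and 409.0 at 2 h, and in WT 453.4 and 520.9 at 0 h and 438.1 and 421.6 at 2 h. The difference of changes was -0.19 ± 0.13 (adjusted p = 1), and it follows signals that were higher in MU at 0 h and lower in MU at 2 h.

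A single array decided the reading of DED81 (YHR019C), for the cytosolic asparaginyl-tRNA synthetase. Its signals in MU were 1661.4 and 1603.9 at 0 h, 568.2 and 1222.1 at 2 h, and 1177.1 and 1107.3 at 6 h, and in WT 1568.9 and 1655.0 at 0 h, 1251.0 and 1245.2 at 2 h, and 1234.7 and 1177.9 at 6 h. Only MU 2 h A was far below the rest at 37 °C. The MU change at 2 h was -0.98 ± 0.29 (adjusted p = 0.0822). Without MU 2 h B, the difference of MU over WT at 2 h was -1.13 (adjusted p = 0.015 by limma) and the difference of changes was -1.14 (adjusted p = 0.0455). With all arrays these were -0.57 ± 0.29 (adjusted p = 0.899) and -0.59 ± 0.40 (adjusted p = 1).

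The enzymes for the same amino acid were then set side by side, in 13 pairs over 12 amino acids, with MSF1 paired with both FRS1 and FRS2. At 6 h the cytosolic gene had the lower change in all 13 pairs, in MU and in WT. At 2 h it was lower in 11 pairs in MU and 12 in WT. The median of the cytosolic minus the mitochondrial change at 6 h was -0.68 in MU and -0.64 in WT, and at 2 h it was -0.29 in MU and -0.42 in WT. These are descriptions, with no test. The pairs farthest apart at 6 h were SES1 and DIA4 for serine, with a difference of -1.97 in MU and -1.32 in WT, and FRS2 and MSF1 for phenylalanine, with -1.24 in MU and -1.14 in WT. For serine in MU, the cytosolic gene fell and the mitochondrial gene rose. For tryptophan, WRS1 fell in both strains and MSW1 rose in WT. The closest pairs were DED81 and SLM5 for asparagine in MU (-0.41) and CDC60 and NAM2 for leucine in WT (-0.07).

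**Figure D4:**
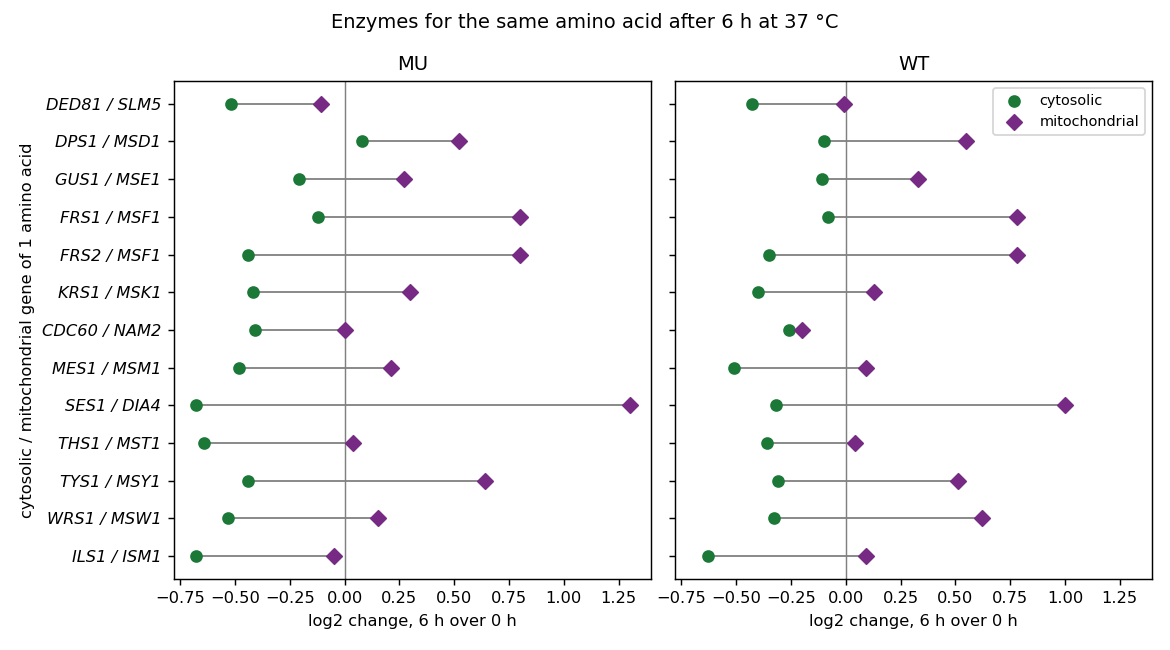
Log2 change from 0 h to 6 h of the cytosolic (green circles) and mitochondrial (purple diamonds) enzyme of the same amino acid, MU left and WT right, joined by a line. The circle lies left of the diamond in all 13 pairs in both strains, and the line is longest for SES1 and DIA4.

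Other genes of tRNA charging moved in both directions. Of 19 listed, 17 had a plain probe set. At 6 h, 2 rose and 3 fell in MU, and 2 rose and 2 fell in WT, and at 2 h, 3 rose and 1 fell in MU, and 2 rose and 1 fell in WT. With the shares of all probe sets given above, between 9.55% and 11.4% in each direction at 6 h and between 3.11% and 5.38% at 2 h, the 2 that rose at 6 h are near the background. GRS2, a paralogue of GRS1, went the opposite way to it. Its signals in MU were 45.5 and 45.9 at 0 h, 82.4 and 77.0 at 2 h, and 84.7 and 89.3 at 6 h, and in WT 59.4 and 55.9 at 0 h, 79.1 and 80.4 at 2 h, and 81.9 and 82.0 at 6 h. GRS2 rose at 6 h by 0.92 ± 0.10 in MU (adjusted p = 0.00115) and by 0.46 ± 0.10 in WT (adjusted p = 0.0203). Cross-reaction between the probe sets of GRS1 and GRS2 was not tested.

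CRS1 (YNL247W), for cysteinyl-tRNA synthetase, had signals in MU of 211.0 and 148.1 at 0 h, 113.8 and 132.0 at 2 h, and 96.1 and 90.7 at 6 h, and in WT of 185.0 and 155.7 at 0 h, 150.1 and 103.7 at 2 h, and 112.1 and 115.5 at 6 h. CRS1 fell at 6 h in MU, with a change of -0.93 ± 0.22 (adjusted p = 0.02), and had -0.61 ± 0.22 in WT (adjusted p = 0.0892). YHR020W, for a cytosolic prolyl-tRNA synthetase, fell in MU (-0.56) and in WT (-0.69). YDR341C, for the cytosolic arginyl-tRNA synthetase, fell in MU (-0.38), with -0.31 in WT (adjusted p = 0.0532). These 3 synthetase genes outside the 32 thus fell in MU, as most of the cytosolic class did.

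In mitochondria, glutaminyl-tRNA is made by an amidotransferase that has HER2, GTF1 and PET112 as subunits. HER2 signals in MU were 124.7 and 80.0 at 0 h, 141.7 and 96.8 at 2 h, and 140.8 and 126.5 at 6 h, and in WT 92.1 and 65.6 at 0 h, 124.8 and 105.4 at 2 h, and 137.6 and 138.4 at 6 h. Its changes at 6 h, 0.41 ± 0.26 in MU and 0.78 ± 0.26 in WT, did not pass the threshold. GTF1 rose at 2 h and at 6 h in both strains, at 6 h by 0.76 ± 0.13 in MU and 0.63 ± 0.13 in WT. PET112 had -0.17 in MU and 0.27 in WT at 6 h, neither past the threshold. DTD1, whose product removes D-amino acids from tRNA, rose at 2 h in MU (0.72) and in WT (0.71). GCN20, which helps the kinase Gcn2 to sense uncharged tRNA, fell at 2 h in MU (-0.38) and in WT (-0.31). GCN4, the activator of amino acid synthesis genes whose level is set mainly in translation, had 6 h changes of 0.23 in MU (adjusted p = 0.066) and 0.24 in WT (adjusted p = 0.0593).

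Ribosomal protein genes gave a measure of how other parts of each translation machinery moved. Of the 47 cytosolic ribosomal protein genes with a plain probe set, 5 fell and 0 rose at 6 h in MU and 5 fell and 1 rose in WT, with medians of -0.13 in MU and -0.09 in WT. The count that fell is near the background, which is 11.4% of all probe sets in MU and 9.55% in WT. The medians of the cytosolic synthetase genes, -0.47 in MU and -0.35 in WT, were lower, and this difference was not tested. Of the 66 mitochondrial ribosomal protein genes, 3 rose and 3 fell in MU and 6 rose and 2 fell in WT, with medians of 0.02 in MU and 0.12 in WT. The background of probe sets that rose is 10.8% in MU and 9.83% in WT, and these counts do not exceed it. The mitochondrial synthetase medians of 0.27 in MU and 0.33 in WT were above these, again without a test. Only 47 of 75 cytosolic ribosomal protein genes had a plain probe set, against 66 of 67 mitochondrial ones.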

How the data were processed

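The deposited values are signal intensities. By the paper, the array images were analysed with the Affymetrix MAS software, and the resulting data were then processed by Matlab scripts. The sources used here do not say whether those scripts shaped the deposited values. As deposited, 4.33% to 6.38% of probe sets were at the lowest signal of an array, and the signals above it matched between arrays at each of 99 percentiles within 2.28%. The step behind this match was not given in the sources used here. All signal columns were used (0 left out), and the strain name, the hour and the culture letter came from the labels. The temperatures, the medium, the density at harvest and the TOR2 mutation were taken from the paper. The 32 genes and the lists were chosen with earlier results of these data known. The paper compared groups by ranks, and the test here was chosen to use all arrays at once.

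Signals of 9275 probe sets (60 control sets left out) were put on the log2 scale and quantile-normalized. They were fitted by limma (3.58.1, R 4.3.3) in 6 groups, with 6 residual degrees of freedom, a trend of variance on signal (prior degrees of freedom of at least 1.87) and an adjusted p under 0.05. The script was tested on simulated data. An exact permutation of 2 arrays against 2 cannot give a p below 0.33, and the number of arrays limits the precision. RDAM was rebuilt from its description (FDR of 10%, windows of 100 moved by 30). Names in the text follow a rule: in each class and strain the 3 called genes with the largest 6 h change, the lowest p in each strain comparison, genes opposite to their class, the pairs farthest apart, and 3 genes outside the list. GTF1, DED81 and others outside it were added after their values were seen. Alternatives were the deposited signals with no quantile step, ranks in limma, median scaling, an offset of 16, leaving out the dimmest 25%, no variance trend, a replicate block, a fit of only the arrays compared, RDAM, an adjusted p under 0.10 and leaving out each array. Python 3.11.15 with pandas 2.3.3 and numpy 2.4.6 ran the other steps.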

Additional observations from a re-analysis of the deposited data

How the results depend on the processing

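Of the 34 calls of single genes, 503 of 748 values under the alternatives kept their direction and passed the threshold, and 0 turned. The other 245 kept their direction only or, under RDAM, which gives an uncalled gene no direction, were not called. Part of this tally was fixed in advance. An adjusted p under 0.10 keeps all 34 calls by definition. The settings with no variance trend, with only the arrays compared and with a replicate block leave each log2 change as it was. Leaving out an array outside the groups compared alters a log2 change only through the quantile normalization. For such values a turn was thus not possible or hardly so. With only the arrays compared, the counts of cytosolic genes that fell were 0 in MU and 0 in WT at 2 h. At 6 h they were 5 in MU and 2 in WT. The counts of mitochondrial genes that rose at 6 h were 0 in MU and 0 in WT. Fewer residual degrees of freedom are part of that setting. Except for RDAM, the share of all probe sets called under the alternatives is not given here. The drops in these counts may therefore not be particular to these genes. RDAM called 5 cytosolic genes lower in MU and 2 in WT at 2 h, and 8 in MU and 4 in WT at 6 h. Of all 9275 probe sets, it called 988 decreased in MU and 929 in WT at 6 h. Without the variance trend the cytosolic counts were 1 in MU at 2 h and 3 in WT at 6 h. At 2 h in WT, median scaling gave 3 and leaving out the dimmest 25% gave 3. At an adjusted p under 0.10, 5 cytosolic genes were lower in WT and 1 mitochondrial gene was lower in MU at 2 h, 5 mitochondrial genes were higher in MU at 6 h, and 1 gene was called in MU from 2 h to 6 h. The cause of these shifts was not tested.

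With each array left out in turn, the cytosolic counts ranged from 1 to 4 in MU and 1 to 2 in WT at 2 h, and from 5 to 13 in MU and 2 to 11 in WT at 6 h. The MU count at 2 h was 1 without either MU 0 h array, and the WT count was 2 without MU 2 h A, MU 2 h B, MU 6 h A, MU 6 h B or WT 2 h A. Mitochondrial counts at 6 h ranged from 0 to 3 in MU and 0 to 2 in WT. Calls from 2 h to 6 h in MU ranged from 0 to 3 (DED81 without MU 2 h B, and GRS1, MES1 and SES1 without MU 6 h A), and those of MU over WT at 2 h and of the difference of changes at 2 h from 0 to 1 (DED81 without MU 2 h B). The cytosolic medians ranged from -0.28 to -0.19 in MU at 2 h and from -0.60 to -0.39 in MU at 6 h. The mitochondrial medians ranged from -0.17 to 0.24 in MU and 0.08 to 0.21 in WT at 2 h (0.08 without WT 2 h B), and from 0.22 to 0.38 in MU and 0.20 to 0.46 in WT at 6 h (0.20 without WT 6 h B). The culture letters share no stated origin. Deviations of same-letter cultures correlated with r of -0.104 to 0.119 over 15 pairs of groups. No common shift by letter was thus seen over all probe sets, and the samples were not treated as paired. These values cannot exclude an effect of the letter on some genes. With the letter as a replicate block, 2 mitochondrial genes rose in WT at 6 h, against 4 without it, and the other counts stayed within 1.5 times. Another probe set of a gene was not run, because each gene has 1. Having 2 cultures in a group limits what can be called. How the dim signals of the mitochondrial genes bear on their calls was not tested.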
